A study of Caenorhabditis elegans with 2 samples.

Results

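The genes described here are the hedgehog-related and patched-related genes of Caenorhabditis elegans, chosen by name: every protein-coding gene of the WBcel235 annotation whose name starts with wrt-, grd-, grl-, ptr- or ptc-, together with hog-1, qua-1 and che-14. There were 86 such genes among 19973 protein-coding genes on the nuclear chromosomes: 10 wrt, 16 grd, 31 grl, 24 ptr and 2 ptc genes and the 3 single genes. For each of them the strongest summit of HAM-2 chromatin immunoprecipitation followed by sequencing (ChIP-seq) was taken in a promoter window, reaching from 1000 bp before the annotated 5′ end to 200 bp after it, and within the gene body. The signal of these summits was already known when the genes were put forward, so their counts and levels are given as a description and carry no test.

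The data come from 1 group of 2 biological replicates, numbered 6 and 7 by the submitters, each made from whole mixed-stage embryos of both sexes aged 3 hours and obtained by bleaching. Both carried the wgIs639 transgene of strain OP639, in which HAM-2 is joined to TY1, EGFP and 3xFLAG, and which also holds unc-119(+), in animals mutant for unc-119 by the allele tm4063. Chromatin was sonicated to 200 to 800 bp and precipitated with an antibody against GFP. HAM-2 is a zinc-finger protein required for migration of the HSN motor neurons. There is no second condition, and an untagged strain was not analysed here. The peak lists hold no measure of expression, so the labelled stage and tissue were not checked against markers, and a summit from whole embryos does not say in which cells HAM-2 was bound.

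In flies and vertebrates, Hedgehog is a secreted, lipid-modified ligand that is released with the help of Dispatched and is bound by Patched, a transporter-like membrane protein with a sterol-sensing domain. Nematodes lack a typical Hedgehog and its signal transducer Smoothened. In their place they have families of secreted proteins, warthog (wrt), groundhog (grd), ground-like (grl), quahog (qua-1) and hog-1, of which some share the self-processing C-terminal Hog domain of Hedgehog. They also have Patched homologues (ptc), a large family of patched-related proteins (ptr) and the Dispatched-like protein CHE-14. Many of these genes are known for roles in epidermal cells and glia, in the apical extracellular matrix and in moulting.

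Per the listing deposited with the files, a peak list that includes background was called for each replicate (28414 nuclear peaks in replicate 6 and 30000 in replicate 7) and on both replicates pooled (30000). The peaks that passed the submitters' irreproducible discovery rate threshold are called reproducible here, and the strongest peaks of a replicate are the same number of peaks taken from the top of its list. Signal is the value the authors' peak caller gave each peak, with a scaling that is not stated. In the pooled list it ran from 27.13 to 1164, and the weakest reproducible peak had 105.3. The pooled list had the same signal, 105.3, at the rank equal to the number of reproducible peaks. Every reproducible summit at the genes described here had the same rank in the pooled list. At these genes the reproducible summits are thus the strongest pooled ones, and not a second line of evidence. The word does not mean that each replicate listed the peak, as ptr-1 shows below. Positions are on ce11. The depth of sequencing could not be taken from the labels or files used here. Levels are therefore set side by side only within a list.

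Reproducible summits were found in the promoter windows of 10 of the 86 genes (11.6%, exact Clopper-Pearson 95% interval 5.72 to 20.3%), beside 4.6% of all protein-coding genes. The 10 genes were che-14, wrt-3, ptr-15, ptr-4, wrt-2, grl-10, ptr-1, wrt-1, wrt-9 and qua-1, from the strongest to the weakest. Gene bodies held a reproducible summit at 5 genes (5.81%), beside 3.04% of all genes. These were wrt-9, ptr-13, wrt-1, wrt-6 and grd-10. Either region held one at 13 genes, or 15.1%, beside 7.08% of all genes, and 73 genes had none in either. Intervals cover counting error only, and genes of a family that share ancestry or lie side by side are not independent draws. Among the strongest peaks of replicate 7 taken alone, that is without replicate 6, the promoter-window count was 6 (all genes 3.84%), and among those of replicate 6, without replicate 7, it was 8 (all genes 4.8%).

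Among the 4 large families, wrt had the highest share of genes with a summit in the promoter window, reproducible or pooled. WRT proteins combine a secreted N-terminal Wart domain with, in several members, a Hog domain. All 10 wrt genes had a pooled summit in the promoter window, beside 35.3% of all protein-coding genes. A reproducible one was there at 4 of the 10 (40%, interval 12.2 to 73.8%), beside 4.6% of all genes. The strongest was at wrt-3 (WBGene00006949, chromosome IV, 9473633 to 9477456, minus strand), with a signal of 348.7 in the pooled list, 197 in replicate 6 and 148.5 in replicate 7. Its summit lay 328 bp upstream of the 5′ end, in an intron of the neighbouring gene cng-3 and 85 bp from the snoRNA gene F38E11.14, so it belongs to a stretch that holds more than 1 annotated gene. At wrt-2 (WBGene00006948, chromosome X, 3092395 to 3094349, minus strand) the summit lay 189 bp upstream, with a signal of 231.8 in the pooled list, 163.3 in replicate 6 and 79.81 in replicate 7. Both had a higher promoter-window signal than any other wrt gene in either replicate. wrt-1 (WBGene00006947, chromosome II, 7530996 to 7533246, plus strand) had 113.5 in the pooled list, 70.91 in replicate 6 and 43.41 in replicate 7, with its summit 115 bp downstream of the 5′ end in an exon annotated as 5′ UTR. wrt-9 (WBGene00006955, chromosome X, 1576637 to 1591320, plus strand) had a weak summit 523 bp upstream (110.8 pooled, 83.69 in replicate 6, 31.54 in replicate 7). It also had a stronger one in an intron, 2223 bp downstream of the 5′ end (228 pooled, 140 in replicate 6, 84.49 in replicate 7). wrt-6 (WBGene00006952, chromosome X, 3480250 to 3483666, plus strand) had an intronic summit 1074 bp downstream, with a signal of 110.5 in the pooled list, 61.08 in replicate 6 and 46.6 in replicate 7. The other wrt genes had pooled window signals of 83.48 (wrt-10), 72.1 (wrt-7), 61.33 (wrt-6), 48.12 (wrt-5), 44.82 (wrt-8) and 31.66 (wrt-4), all below the reproducible set. Without replicate 6, that is among the strongest peaks of replicate 7, the count of wrt genes was 2 of 10, wrt-2 and wrt-3. In the whole lists, background included, 9 of the 10 wrt genes had a window summit in each replicate, beside 35.1% of all genes in replicate 6 and 33.7% in replicate 7. Replicate 6 lacked one at wrt-8 and replicate 7 at wrt-4.

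The window sequences of wrt-2 and wrt-3 are shown because these are the strongest wrt summits. Each line gives the summit base and 50 bp on either side, on the strand of the gene, with capitals for a run of 18 C at wrt-2. The positions are chrX:3094488-3094588 and chrIV:9477734-9477834.
wrt-2: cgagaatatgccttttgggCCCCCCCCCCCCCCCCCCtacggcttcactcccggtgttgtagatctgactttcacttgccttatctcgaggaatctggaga
wrt-3: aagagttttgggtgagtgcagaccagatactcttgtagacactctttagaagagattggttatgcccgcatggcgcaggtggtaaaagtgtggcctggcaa
A run of one base as long as that at wrt-2 was present in 2 of all reproducible summit windows (0.103%). This property was picked out after the sequences were read.

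The groundhog genes encode secreted proteins with a Ground domain. None of the 16 grd genes had a reproducible summit in the promoter window, beside 4.6% of all protein-coding genes. The exact interval for the grd windows, 0 to 20.6%, includes that share. A pooled summit was present there at 5 of the 16 (31.2%), beside 35.3% of all genes. grd-6 came nearest to the reproducible set of all the genes below it, with 97.27 in the pooled list, 62.4 in replicate 6 and 34.3 in replicate 7, its summit at −100 bp from the 5′ end. The next were grd-3 (52.63), grd-5 (40.25), grd-12 (35.26) and grd-15 (31.53). The only reproducible grd summit lay in the body of grd-10 (WBGene00001699, chromosome IV, 3441055 to 3441841, plus strand), whose reporter is a marker of epidermal seam cells. It was intronic, 300 bp downstream of the 5′ end, with 110.1 in the pooled list, 61.95 in replicate 6 and 42.18 in replicate 7, and neither replicate placed it among its strongest peaks.

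The ground-like genes, which encode small secreted proteins, were the largest family and had 1 reproducible summit in 31 promoter windows (3.23%, interval 0.0816 to 16.7%), near the 4.6% of all genes. It lay 201 bp upstream of grl-10 (WBGene00001719, chromosome V, 7774545 to 7775759, plus strand), with a signal of 127.3 in the pooled list, 83.24 in replicate 6 and 40.59 in replicate 7. Replicate 6 ranked it 1308 and replicate 7 ranked it 2697, so without replicate 6 the count of grl genes was 0. A pooled summit was present in the window of 13 grl genes (41.9%), beside 35.3% of all genes. The strongest after grl-10 were grl-26 (88.55, 175 bp downstream of the 5′ end) and grl-17 (65.79, at −253 bp), and the others ran from 27.28 at grl-5 to 62.69 at grl-16. No grl body held a reproducible summit, beside 3.04% of all genes. The strongest there, in grl-15, had 95.26 in the pooled list, 33.3 in replicate 6 and 62.6 in replicate 7. Neither region had any pooled summit at 14 grl genes (grl-2, grl-4, grl-8, grl-11, grl-12, grl-13, grl-14, grl-19, grl-20, grl-21, grl-23, grl-24, grl-28 and grl-30). The same was true of 4 grd genes (grd-4, grd-8, grd-9 and grd-14), of 3 ptr genes (ptr-6, ptr-8 and ptr-9) and of no wrt, ptc or single gene. Of all protein-coding genes, 35.3% had a pooled summit in the window and 44.4% in the body. The share with none in either was not computed, so the counts of genes with none cannot be read as a trait of any prefix. The grl genes are short, with a median of 1301 bp beside 2027 bp for all genes, and the part of length was not tested.

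Among the receptor-like proteins, 3 of 24 ptr genes had a reproducible summit in the promoter window (12.5%, interval 2.66 to 32.4%). The share of all protein-coding genes, 4.6%, lies inside that interval. ptr-15 (WBGene00004229, chromosome V, 6966396 to 6970000, minus strand) had 339.6 in the pooled list, 232.7 in replicate 6 and 117.3 in replicate 7, with its summit 283 bp upstream. ptr-4 (WBGene00004219, chromosome X, 6060758 to 6065986, minus strand), which is needed for the apical extracellular matrix and moulting, had 255.7 in the pooled list, 153.8 in replicate 6 and 126.5 in replicate 7. Its summit lay 822 bp upstream, the furthest of the 10. Both were among the strongest peaks of each replicate. ptr-1 (WBGene00004216, chromosome V, 9177949 to 9181719, minus strand) had 113.6 in the pooled list and 66.95 in replicate 6, with its summit 395 bp upstream, while replicate 7 listed no peak in the window. The window signals of the other 8 ptr genes with a pooled summit ran from 47.69 at ptr-5 to 89.32 at ptr-2, and included 66.88 at ptr-10, whose promoter is used to mark glia. A pooled summit was present in the window of 11 of the 24 ptr genes (45.8%), beside 35.3% of all genes, and 13 had none.

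In the bodies of the ptr genes, which are long (median 5954 bp, against 1301 bp for grl and 2027 bp for all protein-coding genes), 20 of 24 held a pooled summit, beside 44.4% of all genes. A single one of them, in ptr-13 (WBGene00004227, chromosome II, 11156589 to 11162481, minus strand), was reproducible, with 171.4 in the pooled list, 107.6 in replicate 6 and 63.03 in replicate 7. Its summit lay in an intron, 4628 bp downstream of the 5′ end, and inside the tRNA gene WBGene00014426 (chromosome II, 11157802 to 11157874, minus strand). The summit base and 50 bp on either side (chrII:11157803-11157903, strand of ptr-13) are shown because the peak sits on another gene, and capitals mark the bases of the tRNA gene.
ptr-13: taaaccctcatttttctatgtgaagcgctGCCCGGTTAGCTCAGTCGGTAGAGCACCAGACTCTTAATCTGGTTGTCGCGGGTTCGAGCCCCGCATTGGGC
Without peaks within 250 bp of a short noncoding gene, the body count fell to 4 through the loss of ptr-13, and the promoter-window count fell to 9 through the loss of wrt-3. The part of the tRNA and snoRNA genes in those signals was not tested.

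Neither Patched homologue had a reproducible summit, beside 4.6% of all genes in the window and 3.04% in the body. ptc-1, which acts in germline cytokinesis, had a pooled window signal of 59.14, with 40.74 in replicate 6 and none in replicate 7. ptc-3, an essential gene, had no summit in the window in any list and a pooled signal of 68 in its body, 5795 bp downstream of the 5′ end. Replicate 6 had 54.13 there, and replicate 7 listed no summit within 100 bp. Their nearest reproducible summits were 78774 bp (ptc-1) and 6818 bp (ptc-3) from the 5′ ends.

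The strongest summit of all 86 genes was at che-14 (WBGene00000493, chromosome I, 5746633 to 5754306, plus strand), whose product acts in apical secretion from epithelial cells. Its pooled signal was 631.2, place 8 among the 7044 genes with a pooled summit in the window, and its replicate signals were 420.7 and 213.7 (replicates 6 and 7). The summit lay 66 bp upstream of the 5′ end, closer than any other of the upstream summits. qua-1 (WBGene00004264, chromosome II, 8198803 to 8204004, plus strand), a quahog gene required for moulting, was the weakest gene inside the reproducible set, with 107.7 in the pooled list, 60.15 in replicate 6 and 53.34 in replicate 7 and its summit 415 bp upstream. Replicate 6 ranked it 2422, so without replicate 7 it was not called. hog-1 (WBGene00001984), which has a Hog domain alone, had 39.13 in the pooled list with its summit 20 bp downstream of the 5′ end. At that place replicate 7 had a signal of 22.42 and replicate 6 listed no summit within 100 bp.

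**Figure D1:**
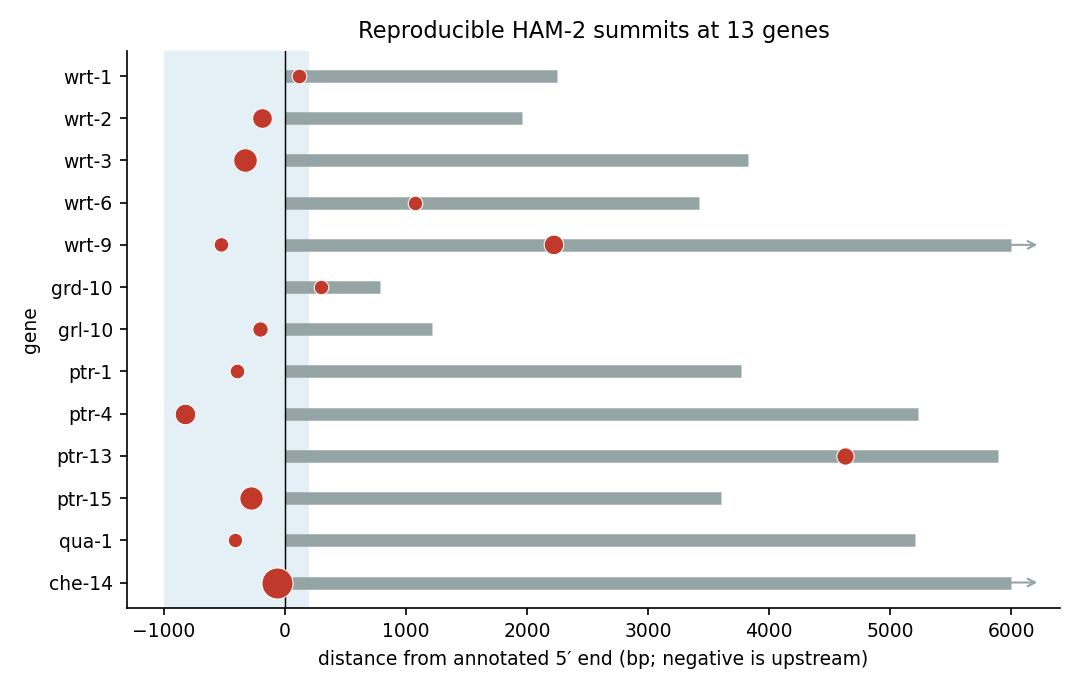
Distance of the 14 reproducible summits from the annotated 5′ end of the 13 genes that hold them; grey bars are gene bodies (cut at the right edge with an arrow for wrt-9 and che-14), the blue band is the promoter window and the area of a point grows with its pooled signal. Of the 10 summits in the band, 9 lie upstream of the 5′ end, the strongest at che-14 (631.2).

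The prefixes were set side by side by the number and signal of the summits listed at their genes. The pooled list includes background, so a listed summit is not a measure of occupancy. Pooled summits numbered 10.8 per 10 kb of promoter window for wrt, 5.55 for ptr, 4.03 for grl and 3.12 for grd, beside 3.64 for all protein-coding genes. Over the genes with a pooled summit in the window, the median of the strongest signal was 77.79 for wrt (n = 10), 66.88 for ptr (n = 11), 41.95 for grl (n = 13) and 40.25 for grd (n = 5), beside 45.89 over 7044 genes. All 11 of these ptr genes and 8 of the 10 wrt genes lay above that last value, as did 6 of 13 grl and 2 of 5 grd genes. The order of these medians depended on the window and the list. When the window reached 500 bp before and 100 bp after the 5′ end, the medians were 66.71 for wrt, 71.57 for ptr, 42.7 for grl and 74.95 for grd, which rests on 2 genes, beside 47.24 for all genes. In replicate 6 the median was 47.3 for wrt and 58.5 for ptr, beside 28.85 for all genes, and in replicate 7 it was 43.01 for wrt and 34.81 for ptr, beside 24.29 for all genes. The wrt median was thus above that of ptr in the pooled list and in replicate 7, and below it in replicate 6 and with the narrower window. From the 5′ end, the nearest reproducible summit was a median of 2263 bp away for wrt, 16240 bp for ptr, 22966 bp for grd and 34643 bp for grl, beside 23150 bp for all genes. These distances use again the summits counted above. For wrt they ran from 115 bp to 127679 bp. The wrt median lies between wrt-6 (1074 bp, to its own intronic summit) and wrt-10 (3452 bp, to the summit of wrt-1). In gene bodies, where length is taken into account, reproducible summits per 10 kb numbered 0.762 for wrt (3 summits) and 0.24 for grd (1 summit). The values were 0 for grl and 0.0598 for ptr (1 summit), beside 0.116 for all genes. The wrt-1 summit was counted both here and in the promoter window. These orders were not tested, and the intervals of the reproducible shares overlap between prefixes.

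**Figure D2:**
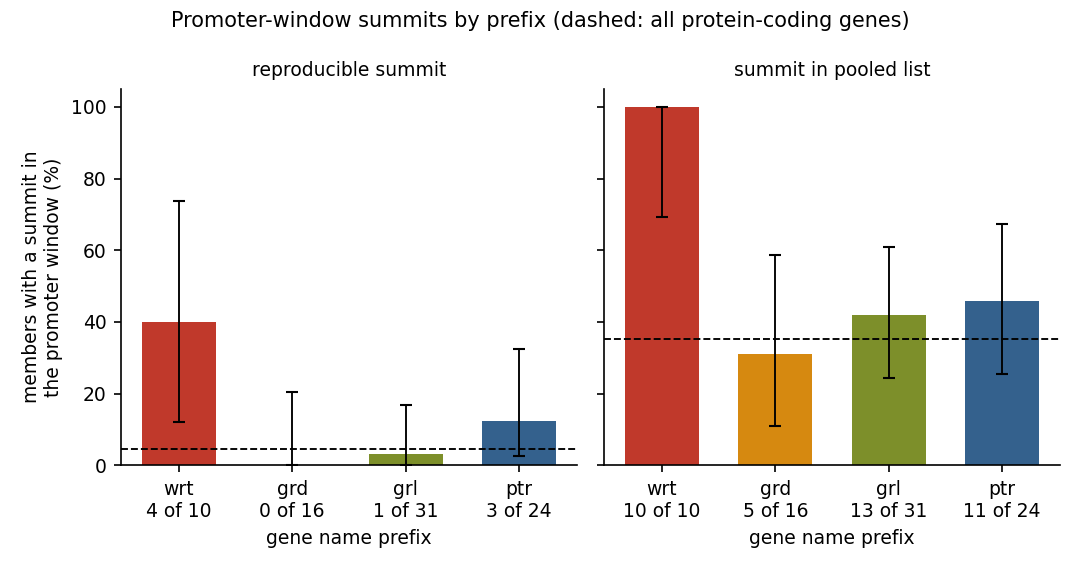
Percent of the wrt, grd, grl and ptr genes with a reproducible summit (left) or any pooled summit (right) in the promoter window; bars are shares, error bars are exact 95% intervals and dashed lines are the shares of all protein-coding genes, 4.6% and 35.3%. The wrt bars are the highest in both panels, at 40% and 100%.

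The families were spread over the chromosomes in different proportions, and chromosomes differed in the share of genes with a summit. Chromosome V holds 32 of the 86 genes (37.2%), among them 19 of 31 grl and 7 of 16 grd genes, and it is the chromosome with the lowest share of genes with a reproducible window summit (2.48%). On it, 3 of the 32 had one, grl-10, ptr-1 and ptr-15. Chromosome X, with the highest share (6.92%), holds 4 of 10 wrt, 4 of 16 grd, 1 of 31 grl and 3 of 24 ptr genes. None of its grd genes had a reproducible window summit. Of its 13 genes, 3 had one, wrt-2, wrt-9 and ptr-4. The part of chromosome in the prefix differences was not tested.

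Replicates were compared over the 14 reproducible summits at these genes. In 13 of them a peak with its summit within 100 bp was listed in both replicates. The strongest peaks of both replicates held 7 of the 14, those of replicate 6 alone 3 (grl-10, wrt-1 and the upstream wrt-9 summit), those of replicate 7 alone 2 (wrt-6 and qua-1), and neither list 2 (ptr-1 and grd-10). Over all reproducible peaks, by the same matching, 61% were in both, 23.6% in replicate 6 alone, 12% in replicate 7 alone and 3.44% in neither. The 7 in both were the 7 strongest: che-14, wrt-3, ptr-15, ptr-4, wrt-2, the wrt-9 intron and ptr-13. Just inside the reproducible threshold lay the windows of wrt-9 (110.8) and qua-1 (107.7), and just outside it those of grd-6 (97.27) and ptr-2 (89.32). For gene bodies the values just inside were 110.5 (wrt-6) and 110.1 (grd-10), and those just outside 95.26 (grl-15) and 94.13 (ptr-23).

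**Figure D3:**
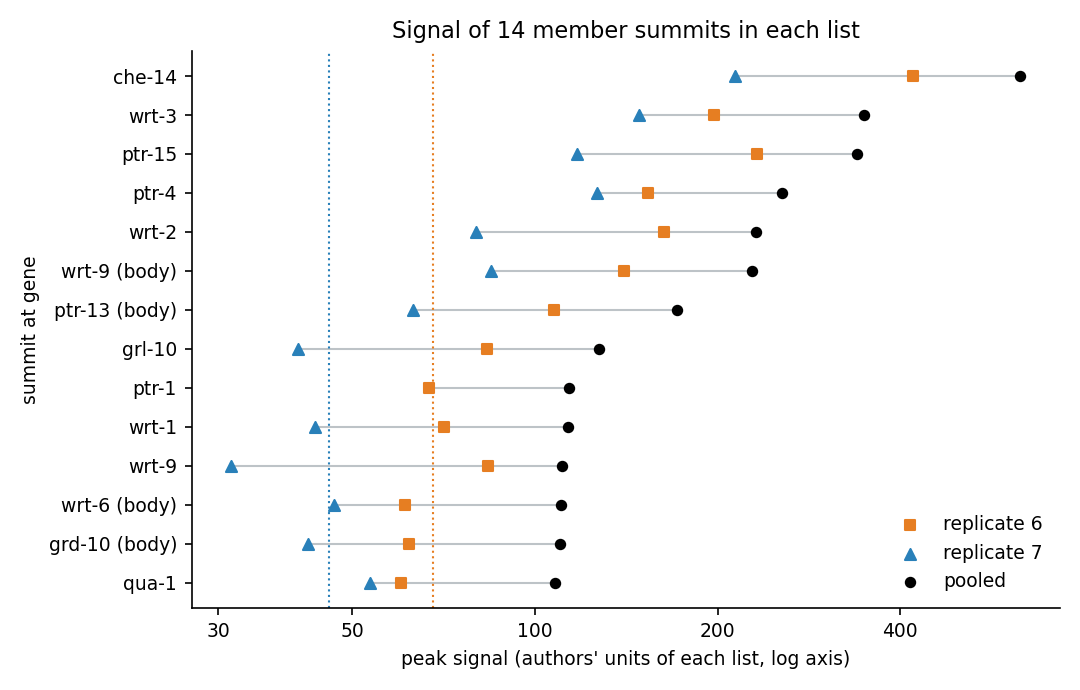
Signal of the 14 reproducible summits in replicate 6 (squares), replicate 7 (triangles) and the pooled list (circles) on a log axis, from the strongest at the top; dotted lines mark the signal of the last of the strongest peaks in replicate 6 (67.96) and replicate 7 (45.75). The 7 uppermost summits lie right of both lines, and ptr-1 has no replicate 7 peak. Signals of different lists may not share a scale.

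Words were searched on both strands in the same windows around each of the 14 summits, and the share of all reproducible summit windows with the same word is given beside each count. The telomere-type word TTAGGC (reverse complement GCCTAA) was present in 2 windows, at wrt-9 upstream of the 5′ end and in grd-10, beside 8.69% of all windows. Both held repeated copies, 6 at wrt-9 and 4 in grd-10, and 2.78% and 4.78% of all windows held at least as many. The word GAGAGA (reverse complement TCTCTC) was present at ptr-15, the wrt-9 intron, ptr-1 and qua-1, or 4 of 14 windows, beside 25.1%. At ptr-15 and the wrt-9 intron it formed an unbroken run of 10 bp, as long or longer in 4.01% of all windows. Copy numbers and run lengths were picked out after the sequences were read. Their cut-offs are the values of these same windows, which are counted among all windows. AGGTCA, a letter string bound by nuclear receptors, was present at wrt-1 alone (4.06% of all windows), and TGATAA, bound by GATA factors, at qua-1 alone (3.8%). The E-box CACGTG (2.01% of all windows) and the AP-1 string TGACTCA (0.463%) were in none of the 14. A match is a run of letters and not a measured site. GC content at the 14 windows ran from 39.6% to 58.4% with a median of 50%, beside a median of 49.5% over all windows. The windows with repeats are shown on the strand of each gene, with the repeat words in capitals, at chrX:1576064-1576164 (wrt-9 upstream), chrIV:3441305-3441405 (grd-10), chrV:6970233-6970333 (ptr-15), chrX:1578810-1578910 (wrt-9 intron) and chrV:9182064-9182164 (ptr-1).
wrt-9 upstream: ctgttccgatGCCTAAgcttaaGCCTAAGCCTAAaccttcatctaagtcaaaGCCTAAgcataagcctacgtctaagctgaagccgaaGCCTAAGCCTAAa
grd-10: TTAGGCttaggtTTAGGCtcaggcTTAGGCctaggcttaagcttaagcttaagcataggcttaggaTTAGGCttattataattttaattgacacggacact
ptr-15: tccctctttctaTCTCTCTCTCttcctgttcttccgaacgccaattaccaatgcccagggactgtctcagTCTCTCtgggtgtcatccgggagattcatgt
wrt-9 intron: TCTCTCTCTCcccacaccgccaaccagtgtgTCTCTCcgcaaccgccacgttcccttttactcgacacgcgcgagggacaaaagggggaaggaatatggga
ptr-1: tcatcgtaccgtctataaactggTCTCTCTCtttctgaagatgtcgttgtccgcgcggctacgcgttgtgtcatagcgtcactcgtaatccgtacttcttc
The telomere-type repeats lay at summits of low signal (110.8 and 110.1). Summits with a searched word had signals from 107.7 (qua-1) to 339.6 (ptr-15), and those without one from 110.5 (wrt-6) to 631.2 (che-14). The ptr-4 summit at chrX:6066758-6066858, 1 of those without, is shown in lower case throughout.
ptr-4: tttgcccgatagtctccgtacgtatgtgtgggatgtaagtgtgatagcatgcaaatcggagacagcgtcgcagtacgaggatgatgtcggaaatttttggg

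Other genes of the pathway were set beside these. Of 12 homologues of Hedgehog pathway components in other animals, 2 had a reproducible window summit, beside 4.6% of all protein-coding genes, and none a reproducible body summit, beside 3.04%. hhat-1, a homologue of the acyltransferase that modifies Hedgehog, had 147.1 in the pooled list, 98.34 in replicate 6 and 45.39 in replicate 7, at −27 bp from the 5′ end. lin-23, an F-box gene related to fly slimb, had 297.9 in the pooled list at −984 bp, near the edge of the window, with 207 in replicate 6 and 96.47 in replicate 7 at summits within 100 bp of it. The replicate 6 summit lay outside the window, where the strongest one inside had 37.88. tra-1, the homologue of the Gli transcription factors, had no window summit in the pooled list and 69.23 in its body. hhat-2 and ptd-2 had no pooled summit in either region. The 3 other sterol-sensing domain genes examined, ncr-1, ncr-2 and scp-1, had no pooled summit in the window, beside 35.3% of all genes with one. Their pooled body signals were 81.33, 64.14 and 36.43. Among 13 regulators and matrix genes of the epidermis, 2 had a reproducible window summit, beside the same 4.6%. nhr-23, a nuclear receptor gene of moulting, had 223.6 in the pooled list, 121.2 in replicate 6 and 64.01 in replicate 7. noah-1, which encodes an apical matrix protein, had 196.1 in the pooled list, 119.4 in replicate 6 and 76.55 in replicate 7. Body summits were reproducible at 3 of the 13, beside 3.04% of all genes, namely elt-1 (163.8 pooled), nhr-23 (163.6) and grh-1 (128.1), which encode transcription factors of the epidermis. The rest of the list had no reproducible summit in either region. These genes were nhr-25, elt-3, lin-26, blmp-1, mlt-10, mlt-11, noah-2, fbn-1 and nas-37. Their strongest pooled body signals ran from 39.45 at nas-37 to 96.71 at nhr-25.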

How the data were processed

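ChIP-seq peak lists were available for 2 replicates of 1 group, for both pooled and as an irreproducible discovery rate list. Per the listing deposited with the files, the authors called peaks on ce11 from the alignments of the replicates and of a control, which was not analysed here. The caller, its version and the depth: not given in the sources used here. No precision can therefore be derived from depth. The signal of each peak and its −log10 q-value were deposited by the authors; signal was used as deposited to rank peaks within a list, and q-values were not used. Whether the replicates came from separate cultures is not stated beyond the label biological replicate.

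Gene models were those of Ensembl release 115. All 24 pairs of list and nuclear chromosome ended inside the WBcel235 lengths. Positions are 1-based. A summit is the start of a peak plus its summit offset. Members, comparison lists and named genes were chosen with earlier results of these data known. Named genes are those with a reproducible summit, the 3 strongest of each prefix and all ptc and single genes. The genes nearest the threshold and those with no pooled summit are named too. From the comparison lists, genes with a reproducible summit and all epidermal genes are named. Others, at the ends of ranges or with a known role, were chosen after their values were seen. Sequences were read from the RefSeq copy of WBcel235, and summits whose window touches a UTR or lies on chromosome I are not shown. Window assignment was tested on simulated data. Tools were scipy 1.17.1, pandas 2.3.3, numpy 2.4.6 and matplotlib 3.10.9 under Python 3.11.15.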

Additional observations from a re-analysis of the deposited data

How the results depend on the processing

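The count of 10 genes with a reproducible window summit was 5 in the upper 50% of reproducible peaks (2.43% of all genes) and ran from 6 to 8 when either replicate was left out. It lay within 1.5 times under the other 7 settings, among them 7 with a window from 500 bp before to 100 bp after the 5′ end (3.24% of all genes), 12 with one from 2000 bp to 500 bp (6.89%) and 15 in a pooled list 2 times as long as the reproducible one (8.09%). In the upper 50%, the count was 2 for wrt, 0 for grl and 1 for the single genes. The narrower window gave 2 wrt genes, since wrt-1 and wrt-9 were lost. The grd count was 1 with the wider window, with any overlap of 1 bp (grd-10 both times) and in the longer list (grd-6), where grl had 2 and ptr had 5. With a replicate left out, counts ran from 2 to 4 for wrt, from 0 to 1 for grl and from 1 to 2 for the single genes. The body count of 5 was 13 in that longer list, 2 in the upper 50% and 8 with any overlap. It ran from 4 to 5 with a replicate left out, but each time only 3 of the genes were shared with the 5. The share of all genes with a body summit, 3.04% for the reproducible list, was not computed under these settings.

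The median window signal with the window of 500 bp to 100 bp was 66.71 for wrt and 74.95 for grd, and with that of 2000 bp to 500 bp it was 54.03 for grd and 79.22 for ptc. In the single replicate lists, on their own scales, it ran from 23.52 to 27.1 for grd, from 21.42 to 29.23 for grl, from 34.81 to 58.5 for ptr and from 53.34 to 60.15 for the single genes, and it was 40.74 for ptc in replicate 6 alone. Pathway homologues numbered 1 with the narrower window, 1 in the upper 50% and 1 without either replicate. Epidermal genes numbered 0 with the narrower window and 4 in the longer list.

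Counts of genes with any pooled summit, tried under settings added after the data were seen, were 27 of 86, 2 grd, 8 grl, 6 ptr and 0 ptc with the narrower window, and 9 grd and 2 ptc with the wider one. The share of all genes with a pooled summit was not computed for those windows. With a replicate left out, the counts ran from 7 to 9 for ptr and from 0 to 1 for ptc. The shares of all genes were then 35.1% in replicate 6 and 33.7% in replicate 7. The cause of these changes was not tested. Of 144 values under alternatives, 42 moved by these measures. No paired analysis was possible because there is a single group. Depth is unknown, and a summit absent from a list was not detected rather than shown to be absent.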
